A study of Homo sapiens with 18 samples.

Results

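The MYC-MAX network and the E-box repressors BHLHE40 and BHLHE41 were followed in the human hepatoma line HepG2 and in APOA4-KO, a line made from HepG2 with CRISPR-Cas9 guides against exons of the apolipoprotein gene APOA4. The 9 genes, MYC, MAX, MXI1, MXD1, MXD4, MLX, MNT, BHLHE40 and BHLHE41, were taken by symbol from the 61806 genes of the count table, each of the 9 was found, and each passed the filter on low counts that left 19743 genes to test. Poly(A) RNA was sequenced from HepG2 of unedited genotype and from APOA4-KO, each kept at 21% oxygen (0 h) or moved to 1% oxygen for 24 h or 48 h, which gave 6 groups of 3 libraries, 18 in all. No normoxic cells of a later time were analysed here, so the effects of hypoxia and of longer culture cannot be told apart. APOA4-KO came from single colonies, selected for mutations in both alleles, how many clones were sequenced is not given in the sources used here, and the edit cannot be told apart from any other way in which the lines came to differ. The study speaks of independent experiments in general, but neither it nor the labels say that the 3 libraries of a group came from separate cultures, so the p-values measure the spread between these libraries, which may be technical.

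MYC is a transcription factor that binds the E-box CACGTG as a dimer with MAX, and it drives genes of growth, ribosome production and nucleotide synthesis. MXI1, MXD1, MXD3, MXD4 and MNT compete for MAX and repress E-box genes through the SIN3-histone deacetylase complex, while MLX dimerizes with MXD1, MXD4 and MNT and with the glucose-sensing factors MLXIP (MondoA) and MLXIPL (ChREBP), which is abundant in liver. MXI1 and BHLHE40 are known targets of the hypoxia-inducible factors, and BHLHE40 (DEC1) and BHLHE41 (DEC2) repress E-box genes, among them those of the circadian clock.

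The core of the hypoxia response element, ACGTG or GCGTG, and the E-box CACGTG were sought on both strands in the 250 bases before the RefSeq starts of these genes (GRCh38.p14), since both sequences bear on how the genes are known to be controlled. A CACGTG holds the ACGTG core on each strand and so counts as 2 core matches. The core was found in 43.2% of 35116 such windows of all genes, ACGTG in 18.5%, GCGTG in 32.2% and CACGTG in 6.34%, and a match is a description of the letters, not a site of binding. No MYC sequence is printed here. MXI1 has 3 RefSeq starts on the forward strand of chromosome 10, and the window before the first (chr10:110207355-110207604) held no core match. The window before the second (chr10:110209981-110210230) held 2, beginning 127 and 113 bases before the start, and the bases shown before the third (chr10:110225746-110225992) held 1, beginning 131 bases before it. Both are shown because MXI1 rose in every comparison with 0 h, and capitals mark the core on either strand:
MXI1, start 2: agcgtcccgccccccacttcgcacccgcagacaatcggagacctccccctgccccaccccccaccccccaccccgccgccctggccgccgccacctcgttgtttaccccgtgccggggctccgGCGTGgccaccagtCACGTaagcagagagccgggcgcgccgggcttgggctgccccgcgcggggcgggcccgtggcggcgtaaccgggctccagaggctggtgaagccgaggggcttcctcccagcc
MXI1, start 3: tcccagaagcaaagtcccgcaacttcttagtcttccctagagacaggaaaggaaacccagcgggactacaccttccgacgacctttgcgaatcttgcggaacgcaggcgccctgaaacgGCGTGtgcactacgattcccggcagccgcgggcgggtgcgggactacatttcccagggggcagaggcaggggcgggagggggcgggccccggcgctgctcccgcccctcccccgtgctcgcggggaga
The counts are summed over the gene (GENCODE v29, chr10:110207605-110287365), so these starts cannot be told apart in the values below.

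BHLHE40, on the forward strand of chromosome 3, had 4 core matches in its window (chr3:4979187-4979436), 2 of which were its single CACGTG. The gene as annotated in GENCODE v29 begins further upstream, at chr3:4979116, so the whole window lies inside it. The 3 stretches below begin at chr3:4979187, chr3:4979251 and chr3:4979276, with the match beginning 245, 174 and 149 bases before the start. MXD4 (chr4:2262330-2262359), MNT (chr17:2401236-2401265) and BHLHE41 (chr12:26125068-26125097), all on the reverse strand, and MLX (chr17:42567038-42567067, forward strand) each had a single CACGTG, and their stretches are shown to set the E-box of the repressors and of MLX side by side. Of their windows, 185, 58, 90 and 32 bases, in that order, lie inside the GENCODE v29 gene. Capitals mark the core or E-box, and in MLX also the GCGTG core read on the other strand:
BHLHE40, stretch 1: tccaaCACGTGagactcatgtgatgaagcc
BHLHE40, stretch 2: ggcagtggccagACGTGcctggagtcacag
BHLHE40, stretch 3: cacagggtagaaCACGTagctccaacccac
MXD4: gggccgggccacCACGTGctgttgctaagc
MLX: gcgggcgcgggtCACGTGggCACGCcaccc
MNT: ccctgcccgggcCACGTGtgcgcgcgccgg
BHLHE41: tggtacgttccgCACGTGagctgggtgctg
The window of MXD1 held no core match. MAX had a single core match before its first start and none before its second.

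Libraries held 76481820 to 91604947 counts. In the libraries labelled APOA4-KO, APOA4 transcript was still counted, at 6.99 to 8.54 CPM (library-size-adjusted counts, with TMM factors) over 9 libraries, against 8.46 to 9.67 CPM in HepG2 at 0 h and 18.9 to 21.7 CPM at 24 h and 48 h, and small edits in exons cannot be read from gene counts. A list of 10 known hypoxia targets, among them CA9 and VEGFA, had 10 of 10 genes higher at 24 h and at 48 h in both lines (edgeR's quasi-likelihood test, adjusted p under 0.05). Of all tested genes, 11.4% and 13.1% rose at these times in HepG2 and 21.5% and 23.9% in APOA4-KO. The median log2 fold change of the list at 48 h was 1.94 in HepG2 and 2.55 in APOA4-KO. Tested directly, the change at 48 h was higher in APOA4-KO for 7 of the 10 and lower for 2, where 36.4% of all tested genes passed. The list was chosen with earlier results of these data known, so its counts are descriptions. At 0 h all 10 were already higher in APOA4-KO than in HepG2 (median log2 difference 0.38), against 12.9% of all tested genes. EPO, a hypoxia target outside this list and named after its values were seen, was at 5.27 ± 0.834, 5.82 ± 0.516 and 13.4 ± 0.389 CPM in HepG2, with no call at 24 h (log2 0.14, adjusted p = 0.33), and it rose at both times in APOA4-KO. The 10 hepatocyte markers summed to 58503 to 86392 CPM over the libraries, and each was detected in every group. The 10 markers of fibroblasts, endothelium, leukocytes and cholangiocytes summed to 519 to 715 CPM in HepG2 and 380 to 477 CPM in APOA4-KO, of which KRT19, a keratin of cholangiocytes and of many carcinoma lines, held 322 to 650 CPM as a group mean. None of these 10 was at 0 in a whole group, and their part in the results below was not tested. The library farthest from the other 2 of its group was APOA4-KO 24 h replicate 1, with a root mean square difference of 0.861 in log2 CPM against 0.707 to 0.838 in the other 17.

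Levels of different genes were set side by side in FPKM, which divides by a length for each gene. On this scale MYC had the highest level of the 9 genes in HepG2 at 0 h, at 36.7 ± 0.697 FPKM (SD, n = 3). MXD4 followed at 31.2 ± 0.638, MLX at 17.4 ± 0.25, BHLHE40 at 14.003 ± 0.172 and MAX, the shared partner, at 6.02 ± 0.225. The repressors MNT, MXD1 and MXI1 had 3.40 ± 0.23, 2.03 ± 0.365 and 1.27 ± 0.169, and BHLHE41 had 0.0367 ± 0.0306. The libraries of neighbours in this order did not overlap. In APOA4-KO at 48 h BHLHE40 led at 154.9 ± 1.06 FPKM, before MYC at 80.8 ± 2.16, MLX at 24.7 ± 0.82, MXD4 at 11.8 ± 0.178 and MXI1 at 8.15 ± 0.25. In APOA4-KO at 0 h BHLHE40 had been the third of the 9 genes, at 22.4 ± 0.371 FPKM, and MXI1, at 1.67 ± 0.0985 FPKM, had been next to last, its libraries overlapping those of MXD1 above it. Order, shares and ratios between genes depend on the length used. The length implied by the FPKM was 6404 bases for MAX and 6049 for MXI1, against 4430 and 4607 exon bases in GENCODE v29. For MXD1 and MXD4 it was 6499 and 7022, against 6351 and 7058. These levels are relative to the total RNA counted in a whole culture. A change in the share of cells that express a gene and a change in its level per cell cannot be told apart.

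**Figure D1:**
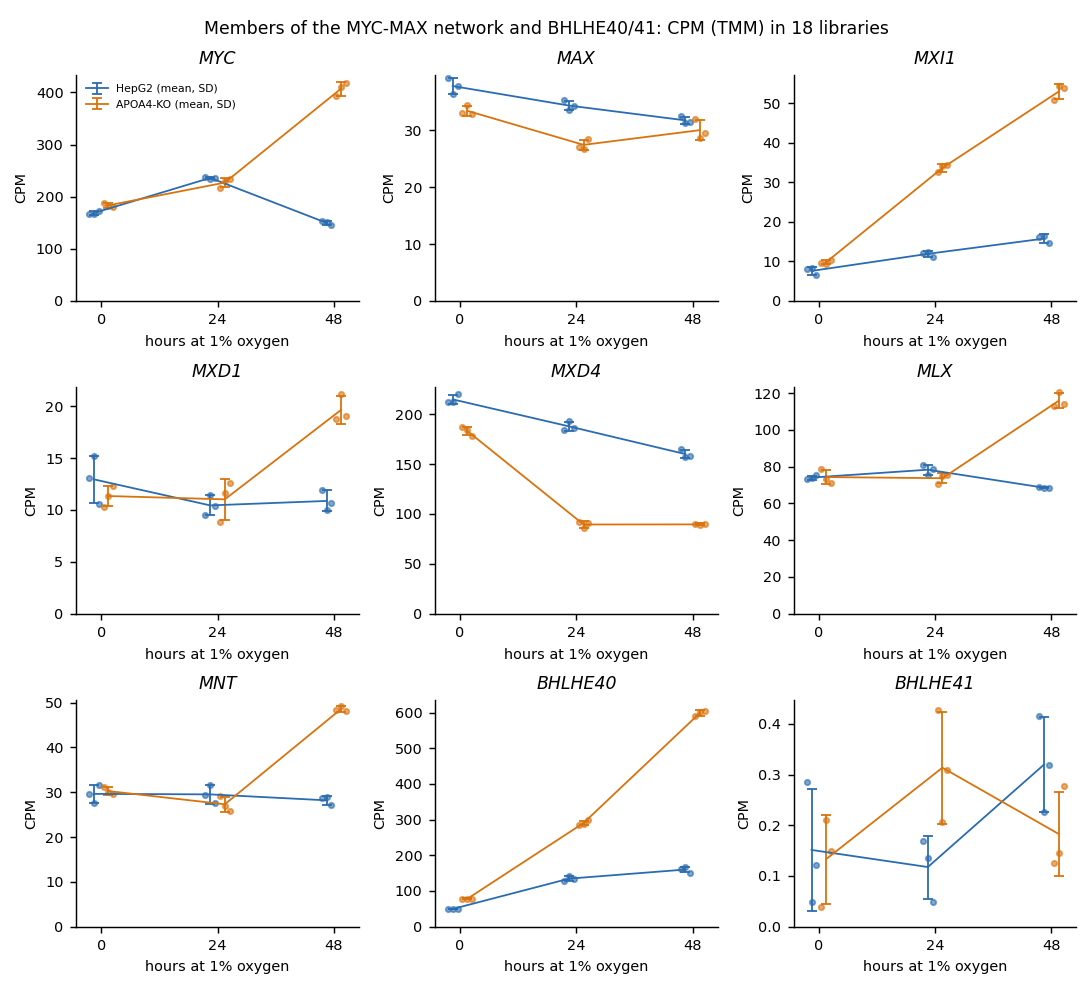
CPM (TMM) of the 9 genes against hours at 1% oxygen, with a point for each library and the mean and SD (n = 3) of each group, HepG2 in blue and APOA4-KO in orange. MYC, MXD1, MLX and MNT stand apart in APOA4-KO at 48 h, MXI1 and BHLHE40 climb in both lines and more steeply in APOA4-KO, MXD4 declines, and BHLHE41 stays at or below 0.43 CPM.

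Of the 9 genes, 3 rose and 2 fell from 0 h to 24 h in HepG2, where 11.4% of all tested genes rose and 18.3% fell. At 48 h 2 rose and 4 fell, against 13.1% and 14.6%. In APOA4-KO 3 rose and 3 fell at 24 h, against 21.5% and 22.8%, and 6 rose and 2 fell at 48 h, against 23.9% and 25.9%. From 24 h to 48 h 2 rose and 3 fell in HepG2, against 18.7% and 11.9%, and 7 rose in APOA4-KO, against 21.9%. No gene was called lower in that last comparison, against 19.4% of all, the remaining 2 being MXD4 (adjusted p = 0.98) and BHLHE41 (adjusted p = 0.45). Between the lines 3 genes were higher and 2 lower in APOA4-KO at 0 h, against 12.9% and 17.6% of all tested genes, 2 were higher and 2 lower at 24 h, against 23.6% and 24.6%, and 6 were higher and 1 lower at 48 h, against 23.5% and 27.3%. Whether the lines changed unequally since 0 h was tested as an interaction, which passed for 4 genes at 24 h and for 7 at 48 h, against 32.2% and 36.4% of all tested genes. In each line the comparisons of 24 h and of 48 h share the 0 h libraries, and the genes were chosen with earlier results of these data known, so these counts are descriptions.

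**Figure D2:**
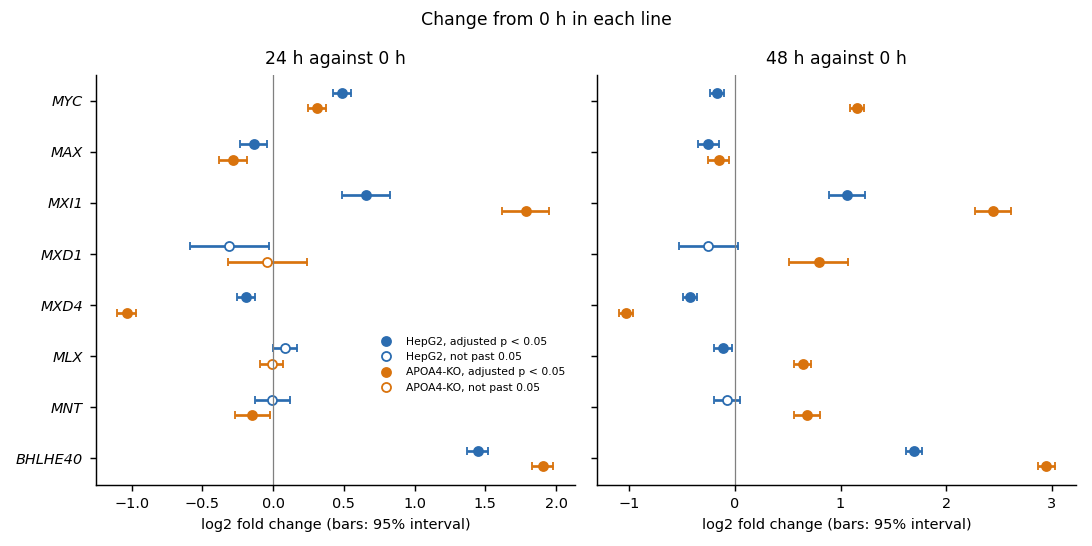
Log2 fold change from 0 h at 24 h (left) and 48 h (right) of 8 of the genes (BHLHE41, near absent, is left out), with the 95% interval as a bar, HepG2 in blue and APOA4-KO in orange, filled where the adjusted p was under 0.05. At 48 h MYC, MLX and MNT lie right of 0 in APOA4-KO and at or left of 0 in HepG2, while MXI1 and BHLHE40 lie right of 0 and MXD4 left of 0 in both lines.

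MYC rose early in both lines and then parted. In HepG2 its 3 libraries had 167.2, 165.9 and 172.3 CPM at 0 h, 237.2, 233.8 and 236.7 CPM at 24 h, and 152.3, 150.7 and 145.6 CPM at 48 h. In APOA4-KO they had 188.4, 182.0 and 179.2 CPM at 0 h, 217.4, 229.7 and 233.5 CPM at 24 h, and 392.8, 410.0 and 419.0 CPM at 48 h. Ordered by mean, the 6 groups ran from APOA4-KO at 48 h through HepG2 and APOA4-KO at 24 h and APOA4-KO and HepG2 at 0 h to HepG2 at 48 h, and no neighbours in this order overlapped. The log2 fold change from 0 h was 0.49 (SE 0.031, edgeR adjusted p = 4.9e-10) at 24 h and −0.17 (SE 0.031, adjusted p = 2.7e-04) at 48 h in HepG2. In APOA4-KO it was 0.31 (SE 0.031, adjusted p = 8.2e-08) and 1.15 (SE 0.031, adjusted p = 4.6e-16), a 2.22-fold rise. The APOA4-KO change minus the HepG2 change was −0.18 at 24 h (95% interval −0.27 to −0.09, adjusted p = 0.0034) and 1.32 at 48 h (95% interval 1.23 to 1.42, adjusted p = 4.3e-14). At 48 h MYC was 2.72-fold higher in APOA4-KO than in HepG2, where at 0 h the difference was 1.09-fold.

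MAX, without which MYC does not bind DNA, fell slightly. Its mean was 37.8 ± 1.39, 34.4 ± 0.859 and 31.8 ± 0.65 CPM at 0 h, 24 h and 48 h in HepG2, and 33.5 ± 0.834, 27.5 ± 0.885 and 30.0 ± 1.75 CPM in APOA4-KO (SD, n = 3). The fall to 48 h was −0.25 in HepG2 (adjusted p = 3.6e-04) and −0.15 in APOA4-KO (adjusted p = 0.0092), and the difference between these changes was 0.10 with a 95% interval of −0.04 to 0.23 (adjusted p = 0.29). In FPKM, MYC was 6.10 ± 0.232 times MAX in HepG2 at 0 h, 9.40 ± 0.18 times at 24 h and 6.44 ± 0.129 times at 48 h. In APOA4-KO the ratio was 7.50 ± 0.271, 11.3 ± 0.387 and 18.6 ± 1.58, and its lowest library at 48 h (16.8) lay above the highest of every other group. The call for MAX at 24 h in HepG2 (−0.14, adjusted p = 0.030) was lost in 8 of 15 refits and that at 48 h in APOA4-KO in 3 of 15.

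MXI1, in HepG2 at 0 h the lowest of the 5 MAX-binding repressors in FPKM, rose in both lines and more in APOA4-KO. Its 3 libraries in HepG2 had 8.00, 8.26 and 6.41 CPM at 0 h, 12.2, 12.4 and 11.1 CPM at 24 h, and 16.2, 16.5 and 14.5 CPM at 48 h. In APOA4-KO they had 9.64, 9.29 and 10.35 CPM at 0 h, 32.6, 34.1 and 34.3 CPM at 24 h, and 50.8, 54.3 and 53.8 CPM at 48 h. No neighbouring groups overlapped, and each time point in APOA4-KO lay above the same time point in HepG2. The log2 fold change from 0 h was 0.65 (SE 0.081, adjusted p = 3.8e-06) at 24 h and 1.06 (SE 0.08, adjusted p = 1.0e-08) at 48 h in HepG2, against 1.78 (SE 0.08, adjusted p = 1.3e-12) and 2.44 (SE 0.081, adjusted p = 9.9e-15) in APOA4-KO. The rise in APOA4-KO exceeded that in HepG2 by 1.13 (95% interval 0.89 to 1.37, adjusted p = 2.7e-07) at 24 h and by 1.38 (95% interval 1.15 to 1.62, adjusted p = 1.1e-08) at 48 h. Before hypoxia MXI1 was already 1.29-fold higher in APOA4-KO (adjusted p = 0.0017).

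MXD4, which is typical of differentiated and resting cells, went the other way. Its 3 libraries in HepG2 had 212.7, 211.9 and 220.2 CPM at 0 h, 184.6, 192.8 and 186.2 CPM at 24 h, and 165.0, 157.2 and 158.0 CPM at 48 h. In APOA4-KO they had 186.85, 184.7 and 178.3 CPM at 0 h, 92.1, 85.7 and 90.6 CPM at 24 h, and 90.4, 88.5 and 89.7 CPM at 48 h. APOA4-KO thus reached its low level by 24 h and its libraries at 24 h and 48 h overlapped, while HepG2 went down at each step without overlap. MXD4 fell by 0.43 on the log2 scale in HepG2 (SE 0.031, adjusted p = 5.7e-09) and by 1.03 in APOA4-KO (SE 0.031, adjusted p = 2.7e-15) at 48 h, with an interaction of −0.61 (95% interval −0.70 to −0.52, adjusted p = 2.2e-09). From 24 h to 48 h in APOA4-KO the log2 difference was 0.00 (95% interval −0.06 to 0.07, adjusted p = 0.98). It was −0.13 and past the threshold (adjusted p = 0.0021) when libraries were scaled by their size alone.

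Set against each other within a library, the repressors that pair with MAX changed in their shares. Of the summed FPKM of MXI1, MXD1, MXD3, MXD4 and MNT in HepG2, MXD4 held 78.8% ± 0.698 before hypoxia, 76.1% ± 0.14 after 24 h and 72.1% ± 1.05 after 48 h, and MXI1 held 3.22% ± 0.46, 5.59% ± 0.313 and 8.24% ± 0.455 (SD, n = 3). In APOA4-KO the share of MXD4 was 75.7% ± 0.391, 53.6% ± 1.22 and 41.6% ± 1.0, and that of MXI1 was 4.68% ± 0.354, 23.4% ± 0.878 and 28.6% ± 0.716. The sum itself was 39.6 ± 0.463, 34.1 ± 0.732 and 32.6 ± 1.04 FPKM in HepG2 and 35.7 ± 0.582, 24.1 ± 0.385 and 28.5 ± 0.309 FPKM in APOA4-KO. On this scale it was lower after hypoxia in both lines. FPKM carries no TMM scaling, and the TMM factors in APOA4-KO were 1.03 to 1.04 at 0 h and 0.92 to 0.94 at 48 h. The size of the fall in APOA4-KO therefore depends on the scaling. MYC divided by this sum was 0.926 ± 0.00674, 1.43 ± 0.0421 and 1.01 ± 0.0196 in HepG2 and 1.14 ± 0.0181, 2.04 ± 0.0881 and 2.84 ± 0.0792 in APOA4-KO. These are shares and ratios of RNA, in which each gene is measured within the same library. They depend on the gene lengths behind the FPKM, and no test was run on them.

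**Figure D3:**
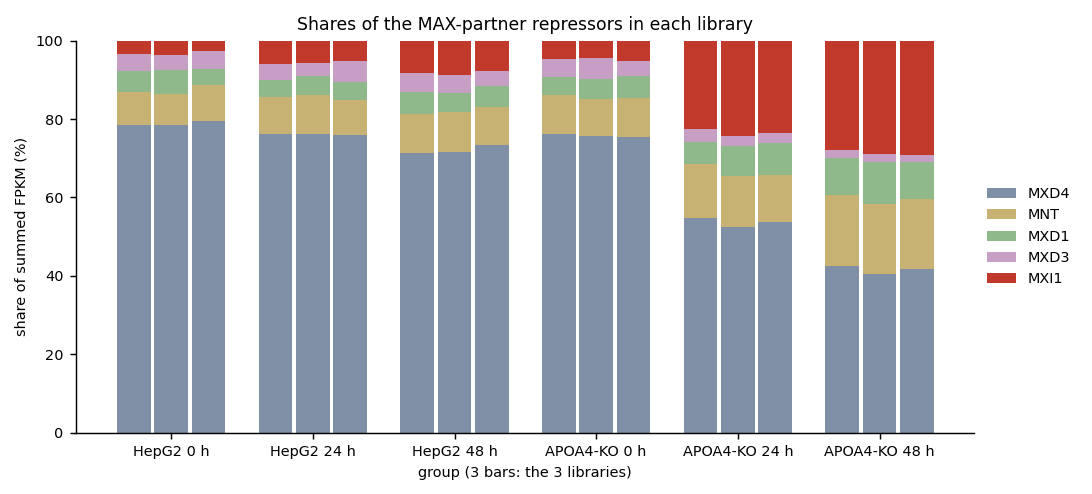
Share (%) of MXD4, MNT, MXD1, MXD3 and MXI1 in their summed FPKM, with a bar for each of the 3 libraries of a group. MXD4 holds most of every bar in HepG2 and goes down to 40.6 to 42.6% in APOA4-KO at 48 h, where MXI1 holds 27.8 to 29.1%.

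MNT and MXD1 were higher in APOA4-KO at 48 h than in any other group. MNT, the widely expressed antagonist of MYC, had 29.6, 27.65 and 31.7 CPM in HepG2 at 0 h and 28.6, 28.9 and 27.1 CPM at 48 h. In APOA4-KO it had 31.2, 30.0 and 29.5 CPM at 0 h, 29.1, 27.0 and 25.9 CPM at 24 h and 48.3, 49.4 and 48.1 CPM at 48 h. The last group lay above all others, which overlapped with their neighbours. MNT rose 1.61-fold from 0 h to 48 h in APOA4-KO (log2 0.68, SE 0.058, adjusted p = 8.8e-09), and the difference was −0.07 in HepG2 (95% interval −0.19 to 0.05, adjusted p = 0.44). The changes differed between the lines by 0.76 (adjusted p = 5.5e-07). The small fall of MNT at 24 h in APOA4-KO (−0.15, adjusted p = 0.049) was lost in 8 of 15 refits.

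MXD1 had 13.1, 15.2 and 10.6 CPM in HepG2 at 0 h and 11.96, 9.97 and 10.7 CPM at 48 h, and in APOA4-KO 10.3, 11.4 and 12.3 CPM at 0 h and 18.7, 21.2 and 19.0 CPM at 48 h. At 24 h the means were 10.4 ± 0.97 CPM in HepG2 and 11.0 ± 1.97 CPM in APOA4-KO. APOA4-KO at 48 h stood above all other groups, which overlapped. From 0 h to 24 h in HepG2 the log2 difference was −0.31 (adjusted p = 0.092), and 4 of 15 refits called it a fall. From 0 h to 48 h MXD1 rose 1.73-fold in APOA4-KO (log2 0.79, SE 0.132, adjusted p = 4.9e-05). The log2 difference over this interval was −0.25 in HepG2 (95% interval −0.53 to 0.03, adjusted p = 0.19), and the changes differed by 1.04 (adjusted p = 1.7e-04). In the GENCODE v29 annotation, 237 of the 6351 exon bases of MXD1 also belong to SNRNP27 on the same strand, and SNRNP27 rose from 18.7 ± 0.195 to 25.6 ± 1.36 CPM over the same interval in APOA4-KO (log2 0.46, adjusted p = 2.4e-06). Its part in the MXD1 counts was not tested.

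MLX, the partner of MLXIP and MLXIPL, also parted at 48 h. It had 73.1, 73.7 and 75.3 CPM in HepG2 at 0 h, 80.9, 75.6 and 78.5 CPM at 24 h and 68.7, 68.6 and 68.3 CPM at 48 h. In APOA4-KO it had 78.6, 73.1 and 71.2 CPM at 0 h, 70.6, 75.1 and 75.3 CPM at 24 h and 112.7, 120.5 and 114.2 CPM at 48 h. MLX was flat in APOA4-KO until 24 h (log2 −0.01, 95% interval −0.10 to 0.07, adjusted p = 0.85) and rose 1.56-fold by 48 h (log2 0.64, SE 0.04, adjusted p = 9.7e-11). In HepG2 the difference at 48 h was −0.11 (adjusted p = 0.045), a call that 11 of 15 refits lost, and the changes in the lines differed by 0.75 (adjusted p = 3.9e-09). Of the 4259 exon bases of MLX, 770 overlap PSMC3IP on the opposite strand, whose mean over the libraries was 2.98 CPM.

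The other genes of the network numbered 6, and at 48 h 1 rose and 1 fell in HepG2 and 2 rose and 2 fell in APOA4-KO, with a median log2 fold change of −0.13 and 0.21 against −0.03 and −0.07 over all tested genes. At 48 h, of all tested genes 13.1% rose and 14.6% fell in HepG2 and 23.9% and 25.9% in APOA4-KO. MLXIPL, the glucose-sensing partner of MLX, fell in HepG2 from 106.9 ± 2.09 to 71.7 ± 1.02 CPM at 24 h and 70.7 ± 0.945 CPM at 48 h. In APOA4-KO it went from 100.7 ± 0.745 to 55.1 ± 1.68 and then rose to 84.4 ± 1.62 CPM, a log2 change of 0.61 from 24 h to 48 h (adjusted p = 7.4e-12). MLXIP was at 73.5 ± 0.475 CPM at 0 h and 90.3 ± 2.32 CPM at 48 h in APOA4-KO (log2 0.30, adjusted p = 1.0e-06) and between 89.8 and 94.4 CPM as a group mean in HepG2. MXD3, a MAX partner of dividing cells, fell in APOA4-KO from 7.78 ± 1.29 to 3.00 ± 0.274 CPM at 48 h (log2 −1.37, adjusted p = 2.3e-06) and had 8.03 ± 0.751 and 6.80 ± 1.28 CPM in HepG2 (adjusted p = 0.36). MGA, a large MAX partner that represses germline genes, rose at 48 h in both lines, by 0.21 in HepG2 (adjusted p = 0.016) and 0.44 in APOA4-KO (adjusted p = 8.9e-06).

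MYCN and MYCL, the paralogs of MYC, were low. MYCN was at 3.77 ± 0.522 CPM in HepG2 at 0 h, rose to 8.74 ± 0.768 CPM at 24 h (log2 1.21, adjusted p = 1.4e-05) and was at 3.70 ± 0.243 CPM at 48 h. In APOA4-KO MYCN stayed between 3.87 and 5.11 CPM as a group mean, with no call. MYCL was between 1.37 and 3.36 CPM as a group mean, with a call among the changes from 0 h only at 24 h in HepG2 (log2 0.68, adjusted p = 0.048), which 11 of 15 refits lost.

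A list of 6 genes known to answer to the MLX partners in liver or in glucose-fed cells was followed beside MLX. At 24 h 4 rose and 1 fell in HepG2 (median 1.09), against 11.4% and 18.3% of all tested genes. In APOA4-KO 4 rose and 2 fell (median 0.51), against 21.5% and 22.8%. The interaction at 24 h passed for 5 genes, each with a lower change in APOA4-KO, against 32.2% of all. At 48 h 2 rose and 2 fell in HepG2 and 5 rose and 1 fell in APOA4-KO, with medians of 0.05 and 0.69 against −0.03 and −0.07 over all tested genes. Of all tested genes 13.1% rose and 14.6% fell in HepG2 at 48 h, and 23.9% and 25.9% in APOA4-KO. TXNIP, an inhibitor of glucose uptake, had 60.6 ± 2.42, 134.6 ± 5.19 and 75.3 ± 2.26 CPM at 0 h, 24 h and 48 h in HepG2 and 113.4 ± 2.23, 182.5 ± 5.02 and 343.3 ± 1.57 CPM in APOA4-KO. It thus peaked at 24 h in HepG2 and was highest at 48 h in APOA4-KO, and the changes at 48 h differed by 1.28 (adjusted p = 3.3e-13). G6PC1, which releases free glucose, rose from 11.3 ± 1.25 to 76.3 ± 1.63 CPM at 24 h in HepG2 and fell to 7.11 ± 0.547 CPM at 48 h, while in APOA4-KO it was 88.1 ± 3.56, 156.0 ± 1.3 and 253.5 ± 7.73 CPM. KLF10 rose at 24 h in both lines, by 1.02 in HepG2 and 0.91 in APOA4-KO, and stood above 0 h at 48 h by 0.41 and 1.08. At 24 h its changes differed by −0.11 with no call (edgeR adjusted p = 0.3). ARRDC4, a paralog of TXNIP, rose at 24 h in both lines, by 1.38 in HepG2 and 0.34 in APOA4-KO. PKLR, the liver pyruvate kinase, changed by −0.13 in HepG2 (adjusted p = 0.16) and rose by 0.28 in APOA4-KO (adjusted p = 0.0016) at 48 h. GPD1, which makes glycerol 3-phosphate, fell in both lines at 48 h, from 16.8 ± 1.18 to 12.1 ± 1.29 CPM in HepG2 and from 10.6 ± 0.468 to 2.32 ± 0.2 CPM in APOA4-KO. The 5 genes that rose at 48 h in APOA4-KO were 3 when libraries were scaled by their size alone or with limma. Scaling by size alone moved the median of all tested genes there from −0.07 to −0.23. PKLR lost its call in 4 of 15 refits, and ARRDC4, which had risen by 0.29 at 48 h (adjusted p = 0.035), in 8 of 15.

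**Figure D4:**
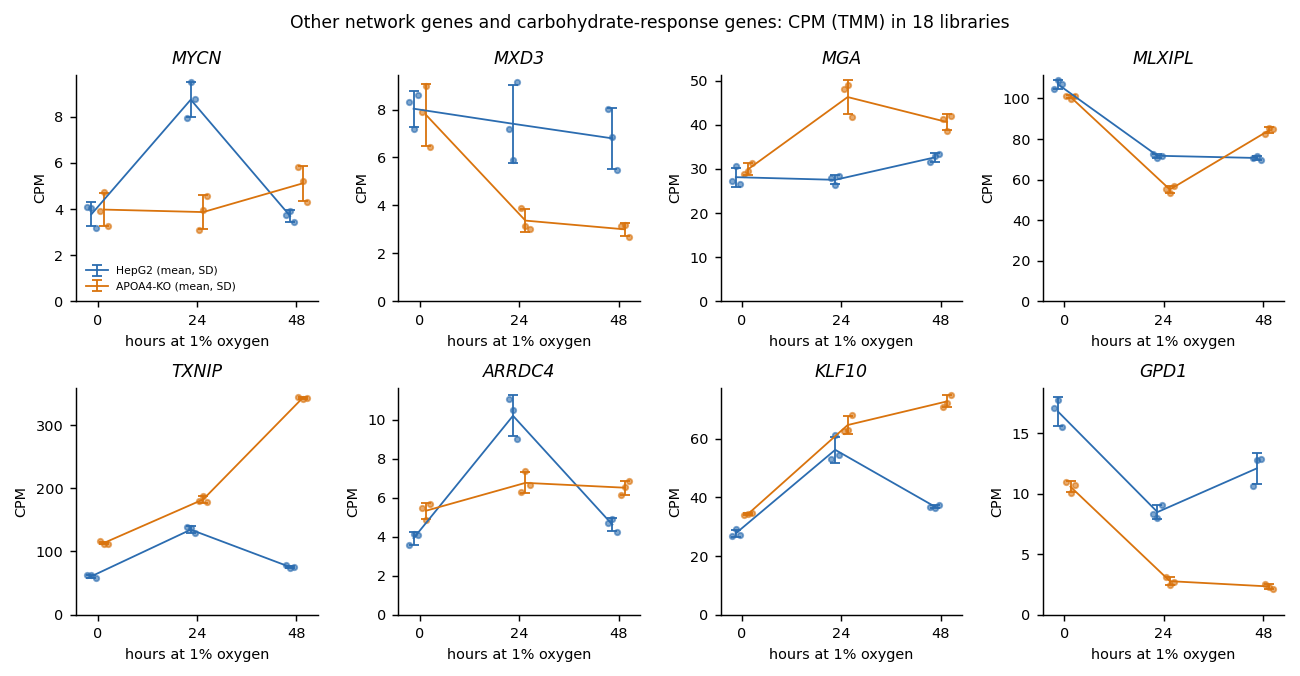
CPM (TMM) of MYCN, MXD3, MGA and MLXIPL (top) and of TXNIP, ARRDC4, KLF10 and GPD1 (bottom) against hours at 1% oxygen, with a point for each library and the mean and SD (n = 3), HepG2 in blue and APOA4-KO in orange. MYCN, ARRDC4, TXNIP and KLF10 peak at 24 h in HepG2, while TXNIP and KLF10 reach their highest group mean in APOA4-KO at 48 h.

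BHLHE40 rose at every step in both lines. Its 3 libraries in HepG2 had 49.0, 50.0 and 48.9 CPM at 0 h, 128.0, 141.2 and 133.7 CPM at 24 h, and 161.4, 166.5 and 151.5 CPM at 48 h. In APOA4-KO they had 77.8, 76.4 and 78.6 CPM at 0 h, 285.2, 288.3 and 297.9 CPM at 24 h, and 590.2, 602.0 and 604.5 CPM at 48 h. The 6 groups did not overlap. The rise from 0 h to 48 h was 3.24-fold in HepG2 (log2 1.70, SE 0.036, adjusted p = 7.0e-17) and 7.72-fold in APOA4-KO (log2 2.95, SE 0.037, adjusted p = 8.0e-21). The changes differed by 0.46 at 24 h (95% interval 0.35 to 0.56, adjusted p = 7.2e-07) and by 1.25 at 48 h (95% interval 1.15 to 1.36, adjusted p = 5.4e-13). Between the lines BHLHE40 was higher in APOA4-KO at each time, 1.57-fold before hypoxia, 2.16-fold after 24 h and 3.75-fold after 48 h, and its direction and call held in all refits. BHLHE41 had 3 to 39 counts in a library, 0.04 to 0.43 CPM, its groups overlapped with their neighbours, and it passed no comparison (adjusted p between 0.14 and 0.91), so a change was not detectable at this depth.

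Clock genes, several of them known targets of BHLHE40 and of CLOCK and BMAL1 at E-boxes, were called in both lines. Of 15 genes, 2 rose and 6 fell at 48 h in HepG2 (median −0.12), against 13.1% and 14.6% of all tested genes, and 7 rose and 1 fell in APOA4-KO (median 0.20), against 23.9% and 25.9%. The interaction, which passed for 36.4% of all, passed for 9 genes higher and 1 lower in APOA4-KO, the latter being CIART with near-absent counts. The 6 that fell in HepG2 were 3 without HepG2 0 h replicate 2 or HepG2 48 h replicate 1, and the 1 that fell in APOA4-KO, DBP, lost its call without any of 4 libraries (0 h replicates 2 and 3, 48 h replicates 2 and 3). NR1D1, the nuclear receptor REV-ERBα that represses BMAL1, had 23.8 ± 0.317, 26.6 ± 0.67 and 17.4 ± 1.31 CPM in HepG2 and 22.7 ± 0.596, 32.7 ± 3.46 and 144.6 ± 5.88 CPM in APOA4-KO. It fell by 0.45 on the log2 scale in HepG2 (adjusted p = 2.9e-05) and rose by 2.67 in APOA4-KO (SE 0.066, adjusted p = 1.5e-16). Its paralog NR1D2 rose in both lines, by 0.30 in HepG2 (adjusted p = 0.045) and 1.61 in APOA4-KO (adjusted p = 2.8e-10). PER2, a repressor of CLOCK and BMAL1, rose by 1.13 in APOA4-KO (adjusted p = 4.2e-11), with no call in HepG2 (adjusted p = 0.19). DBP, a PAR-domain activator driven from E-boxes, fell in both lines, by 0.49 in HepG2 (adjusted p = 0.016) and 0.45 in APOA4-KO (adjusted p = 0.015). PER3 fell by 0.48 in HepG2 (adjusted p = 0.038), a call that 7 of 15 refits lost.

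Genes known to be driven by MYC moved in both directions. Of 32 genes, mostly of ribosome assembly and nucleotide and polyamine synthesis, 13 rose and 5 fell at 48 h in HepG2, where MYC fell, against 13.1% and 14.6% of all tested genes. In APOA4-KO, where MYC rose, 16 rose and 12 fell, against 23.9% and 25.9%. Their medians were 0.02 and 0.08, against −0.03 and −0.07 over all tested genes, and no gene of the list reached a 2-fold change in either line (range −0.84 to 0.80). In HepG2 the largest changes were of DDX18, an RNA helicase (0.54, adjusted p = 4.3e-07), and the ribosome assembly factors PPAN (0.46, adjusted p = 7.2e-05) and UTP20 (0.38, adjusted p = 6.4e-04). In APOA4-KO they were of CDK4, a kinase of the G1 phase that went from 203.8 ± 6.9 to 114.2 ± 4.76 CPM (−0.84, adjusted p = 1.4e-13), GNL3, nucleostemin (0.80, adjusted p = 3.3e-11), and WDR43, a nucleolar factor (0.74, adjusted p = 8.6e-12). DDX18 and PPAN rose in APOA4-KO too, by 0.27 and 0.61, and GNL3 and WDR43 in HepG2, by 0.33 and 0.34. UTP20 had no call in APOA4-KO, and CDK4 none in HepG2. Without HepG2 48 h replicate 2, 1 rather than 5 genes fell in HepG2. When libraries were scaled by their size alone, 9 rather than 16 genes rose in APOA4-KO, and the median of all tested genes moved from −0.07 to −0.23. At 24 h, when MYC rose in both lines, 9 of the 32 genes rose and 3 fell in HepG2 (median 0.05). Of all tested genes 11.4% rose and 18.3% fell there (median −0.03). In APOA4-KO at 24 h 12 rose and 15 fell (median −0.09), against 21.5% and 22.8% of all tested genes (median −0.01).

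Of 9 genes of the SIN3-histone deacetylase complex, through which the MXD repressors act, 3 rose and 1 fell in HepG2 (median −0.02), against 13.1% and 14.6% of all tested genes, and 3 rose and 4 fell in APOA4-KO (median −0.08), against 23.9% and 25.9%, at 48 h. SAP30, a SIN3 subunit known to respond to hypoxia, rose in both lines, by 0.92 (adjusted p = 0.0015) and 1.05 (adjusted p = 1.9e-04), from about 1.18 and 1.19 CPM. HDAC2 also rose in both, by 0.23 in HepG2 (adjusted p = 1.7e-04) and 0.35 in APOA4-KO (adjusted p = 4.0e-07). The scaffold SIN3B fell by 0.33 in HepG2 (adjusted p = 9.1e-06), with no call in APOA4-KO. In APOA4-KO BRMS1 fell by 0.95 (adjusted p = 8.6e-11) and the histone-binding RBBP4 by 0.60 (adjusted p = 2.3e-10), both with no call in HepG2. Of 12 cofactors and regulators of MYC stability, 1 rose and 4 fell in HepG2 (median −0.07) and 5 rose and 4 fell in APOA4-KO (median 0.07), against the same shares. Scaling by library size alone, or limma, gave 1 rather than 5 higher in APOA4-KO, and the former moved the median of all tested genes from −0.07 to −0.23. PIM1, a kinase that acts with MYC, had 53.6 ± 0.303, 92.7 ± 2.69 and 42.8 ± 0.937 CPM in HepG2 and 77.8 ± 0.584, 156.5 ± 7.57 and 657.6 ± 4.65 CPM in APOA4-KO, an 8.45-fold rise at 48 h (log2 3.08, SE 0.033, adjusted p = 5.1e-22) where it fell by 0.32 in HepG2. SKP2, a ubiquitin ligase subunit for MYC, fell by 1.09 in APOA4-KO (adjusted p = 2.5e-12), with no call in HepG2. The acetyltransferase KAT2A fell in both lines, by 0.78 in APOA4-KO (adjusted p = 5.3e-12) and 0.19 in HepG2 (adjusted p = 0.0012). The deubiquitinase USP28 rose by 0.35 in HepG2 (adjusted p = 9.2e-05), with no call in APOA4-KO. ZBTB17 (MIZ1) fell by 0.32 in HepG2 (adjusted p = 0.0013) and rose by 0.20 in APOA4-KO (adjusted p = 0.017).

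**Figure D5:**
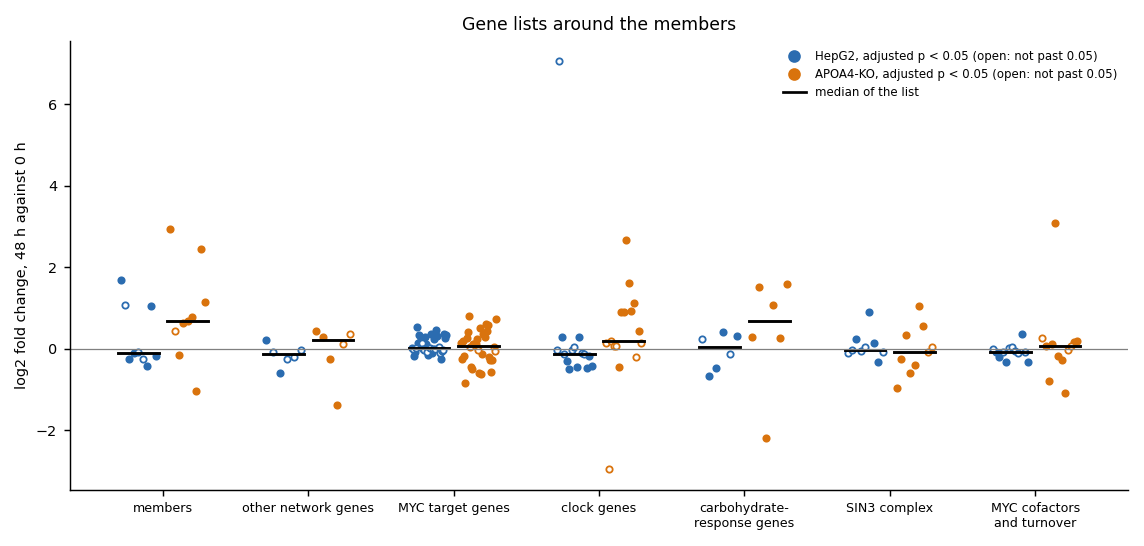
Log2 fold change from 0 h to 48 h of every gene of the lists, with HepG2 in blue and APOA4-KO in orange, filled where the adjusted p was under 0.05, and a black bar at the median of each list. The MYC target genes lie between −0.84 and 0.80, and the open points at 7.06 and −2.96 among the clock genes are CIART, which had 0 counts in 9 of 18 libraries and at most 40 in any.

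Across the 18 libraries, the genes most like MYC in log2 CPM included CCN2 (Pearson r = 0.991) and ZDHHC9 (0.986). MXI1 was most like NAV2 (0.995), FNDC3B (0.991) and PRKAA1 (0.988), and the genes most like BHLHE40 included VEGFA (0.993) and TNS1 (0.993). MXD4 was most like EXOC7 (0.995), TRIM47 (0.993) and PSME3 (0.992). The libraries share their 6 groups, so these values describe group means more than single libraries, and no test was run on them.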

How the data were processed

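Poly(A) RNA was sequenced in 18 libraries, made per the labels with dUTP in the second strand, which keeps strand, while the methods name an NEBNext Ultra kit without mention of strand. Per the labels, the authors used fastp, HISAT2 and StringTie with GRCh38.p13, while the methods name featureCounts, and whether counting used strand is not stated. The deposited counts per gene are whole numbers. In them the values 4, 8 and 12 are over-frequent (4 occurs 2.66 to 3.12 times as often as its neighbours), for a reason not stated. The deposited FPKM, made by the authors from reads per gene length and depth, were used for levels between genes and for limma. Groups came from the sample labels. The counts were tested with edgeR 4.0.16 (filterByExpr, TMM, 1 coefficient per group over 18 libraries, quasi-likelihood F test, Benjamini-Hochberg adjustment over 19743 genes, R 4.3.3), in 11 comparisons. Rose and fell mean an adjusted p under 0.05. The script was tested on simulated counts in which few genes were changed, in a single group and in both directions, so this did not test the scaling where many genes change. Alternatives were other scaling, no filter, a replicate block, only the groups compared, DESeq2 1.42.0, limma 3.58.1 on log2(FPKM + 1) or log2(FPKM + 0.1), and leaving out each library. The members and gene lists were chosen with earlier results of these data known. In each list the 3 called genes of largest change per line at 48 h were named, with all genes of the network and of the MLX target list, and, for MYC, MXI1, MXD4 and BHLHE40, the 3 genes of most similar log2 CPM, of which 1 for MYC and 1 for BHLHE40 are not reported here. CIART was named after its values were seen. Libraries held 76481820 to 91604947 counts.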

Additional observations from a re-analysis of the deposited data

Results flagged for a closer look

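The following values were picked out because the change from 0 h differed between the lines in a test of the difference itself (the APOA4-KO change minus the HepG2 change on the log2 scale, edgeR adjusted p under 0.05). No explanation was tested. Among the 9 genes the difference was −0.18 for MYC, 1.13 for MXI1, −0.84 for MXD4 and 0.46 for BHLHE40 at 24 h. At 48 h it was 1.32 for MYC, 1.38 for MXI1, 1.04 for MXD1, −0.61 for MXD4, 0.75 for MLX, 0.76 for MNT and 1.25 for BHLHE40. Thus MYC and the repressors MXI1, MXD1 and MNT all had a higher change in APOA4-KO at 48 h, and MXD4 a lower one at both times.

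Among the other genes of the network the difference at 24 h was −1.25 for MYCN, −1.09 for MXD3, 0.66 for MGA and −0.29 for MLXIPL. At 48 h it was −1.13 for MXD3, 0.37 for MLXIP and 0.34 for MLXIPL. Among the genes known to answer to the MLX partners it was −0.46 for TXNIP, −1.04 for ARRDC4, −0.38 for PKLR, −0.95 for GPD1 and −1.93 for G6PC1 at 24 h. At 48 h it was 1.28 for TXNIP, 0.41 for PKLR, 0.67 for KLF10, −1.71 for GPD1 and 2.19 for G6PC1, so TXNIP, PKLR and G6PC1 had differences of opposite sign at the 2 times. The value of PKLR at 48 h lost its call in 4 of 21 refits (scaling by library size alone and limma, adjusted p up to 0.14).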

How the results depend on the processing

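The 3 libraries of a group set the precision, the 0 h libraries are shared by both later times, and 0 h is also the only normoxic time. Levels are of RNA and not of protein. Of the 9 genes, 5 were called between the lines at 0 h in every refit, 4 to 5 at 24 h and 7 to 8 at 48 h. With the reported settings 30.5%, 48.1% and 50.8% of all tested genes were called at these times, and other settings moved these shares. The call and direction of BHLHE40 and MXI1 held in every refit of every comparison. The calls lost were MAX in HepG2 at 24 h (8 of 15 refits), MAX in APOA4-KO at 48 h (3) and from 24 h to 48 h (6, with 3 more turned), MLX in HepG2 at 48 h (11) and MNT in APOA4-KO at 24 h (8). Among other genes they were MYCL in HepG2 at 24 h (11), PER3 (7), DBP (2) and MGA (2) in HepG2 at 48 h, ARRDC4 (8) and PKLR (4) in APOA4-KO at 48 h, ARRDC4 in APOA4-KO at 24 h (2) and the PKLR interaction at 48 h (4 of 21). Calls were gained for MAX (5) between the lines at 48 h, MLX (3) and MNT (1) between the lines at 24 h, MXD1 (4), MLX (3) and MLXIP (4) in HepG2 at 24 h, MAX in HepG2 from 24 h to 48 h (3), MYCN in APOA4-KO at 48 h (2) and the interactions of MAX (2 of 21) and MYCL (1) at 24 h and MGA (6) at 48 h. Without APOA4-KO 24 h replicate 1, MAX from 24 h to 48 h in APOA4-KO was 0.12 (adjusted p = 0.097). Scaling by library size alone moved the median of all genes from −0.07 to −0.23 in APOA4-KO at 48 h, and from −0.04 to −0.19 between the lines at 48 h. The replicate block called 5 and 8 of the 9 genes at 24 h and 48 h in APOA4-KO, against 44.1% and 49.0% of all tested genes. In HepG2 it called 5 and 5, against 28.9% and 26.9%. Same-numbered libraries did not deviate together (median correlation −0.01, range −0.14 to 0.05). Whether they shared a culture or a preparation cannot be read from these correlations.

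The values that changed sign all had no call as reported, apart from MAX in APOA4-KO from 24 h to 48 h, and the cause was not tested. With scaling by library size alone the log2 difference turned to 0.00982 (MYC between the lines at 24 h), −0.0758 (MAX between the changes at 48 h), −0.13 (MXD4 in APOA4-KO from 24 h to 48 h), 0.0195 (MNT in HepG2 from 24 h to 48 h), −0.0271 (MYCL in APOA4-KO from 0 h to 48 h), −0.12 (ARRDC4 between the changes at 48 h). With limma on log2(FPKM + 1), with and without the filter, the log2 difference turned to 0.0101 (MYC between the lines at 24 h), −0.00204 (MAX in APOA4-KO from 24 h to 48 h), −0.0619 (MAX between the changes at 48 h), −0.12 (MXD4 in APOA4-KO from 24 h to 48 h), 0.0157 (MNT in HepG2 from 24 h to 48 h), −0.00502 (MYCL in APOA4-KO from 0 h to 48 h), −0.052 (ARRDC4 between the changes at 48 h). With limma on log2(FPKM + 0.1) the log2 difference turned to 0.0103 (MYC between the lines at 24 h), −0.00272 (MAX in APOA4-KO from 24 h to 48 h), −0.078 (MAX between the changes at 48 h), −0.13 (MXD4 in APOA4-KO from 24 h to 48 h), 0.0203 (MNT in HepG2 from 24 h to 48 h), −0.000572 (MYCL in APOA4-KO from 0 h to 48 h), −0.11 (ARRDC4 between the changes at 48 h). With the RLE size factors the log2 difference turned to 0.0301 (MNT in HepG2 from 0 h to 24 h), 0.00433 (MGA in HepG2 from 0 h to 24 h), 0.0079 (MLXIP in HepG2 from 0 h to 24 h), −0.0255 (MLXIP between the changes at 24 h). With DESeq2 the log2 difference turned to 0.0302 (MNT in HepG2 from 0 h to 24 h), 0.00423 (MGA in HepG2 from 0 h to 24 h), 0.00778 (MLXIP in HepG2 from 0 h to 24 h), −0.0256 (MLXIP between the changes at 24 h). Without the filter on low counts the log2 difference turned to −0.00196 (MXD4 in APOA4-KO from 24 h to 48 h), −0.000127 (MLX between the lines at 0 h), 0.00469 (MLX in APOA4-KO from 0 h to 24 h), 0.00345 (MLXIP in APOA4-KO from 0 h to 24 h). With only the groups compared the log2 difference turned to −0.0145 (MXD4 in APOA4-KO from 24 h to 48 h), 0.010 (MLX in APOA4-KO from 0 h to 24 h), 0.0487 (MNT in HepG2 from 0 h to 24 h), 0.000177 (MYCN in HepG2 from 0 h to 48 h), 0.0229 (MGA in HepG2 from 0 h to 24 h), 0.0265 (MLXIP in HepG2 from 0 h to 24 h), 0.00892 (MLXIP in APOA4-KO from 0 h to 24 h). With the replicate block the log2 difference turned to 0.0178 (BHLHE41 between the lines at 0 h). Over the refits that leave out 1 library, the ranges that crossed 0 were −0.0107 to 0.12 (ARRDC4 between the changes at 48 h), −0.68 to 0.65 (BHLHE41 between the lines at 0 h), −0.78 to 0.47 (BHLHE41 in HepG2 from 0 h to 24 h), −0.0694 to 0.0337 (MGA in HepG2 from 0 h to 24 h), −0.0385 to 0.0315 (MLX between the lines at 0 h), −0.0258 to 0.0498 (MLX in APOA4-KO from 0 h to 24 h), −0.0188 to 0.0661 (MLXIP between the changes at 24 h), −0.0474 to 0.0426 (MLXIP in APOA4-KO from 0 h to 24 h), −0.0459 to 0.00426 (MLXIP in HepG2 from 0 h to 24 h), −0.0225 to 0.0771 (MNT between the lines at 0 h), −0.0596 to 0.0483 (MNT in HepG2 from 0 h to 24 h), −0.0155 to 0.23 (MXD1 between the lines at 24 h), −0.13 to 0.11 (MXD1 in APOA4-KO from 0 h to 24 h), −0.00407 to 0.13 (MXD1 in HepG2 from 24 h to 48 h), −0.30 to 0.0193 (MXD3 in HepG2 from 0 h to 24 h), −0.0279 to 0.022 (MXD4 in APOA4-KO from 24 h to 48 h), −0.0356 to 0.57 (MYCL between the changes at 48 h), −0.24 to 0.0903 (MYCL in APOA4-KO from 0 h to 24 h), −0.42 to 0.18 (MYCL in HepG2 from 0 h to 48 h), −0.15 to 0.13 (MYCN in APOA4-KO from 0 h to 24 h), −0.12 to 0.0527 (MYCN in HepG2 from 0 h to 48 h).

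Of the list counts at 48 h, scaling by library size alone and limma in each form gave 3 carbohydrate-response genes, 9 MYC target genes and 1 MYC cofactor higher in APOA4-KO. Library size alone called 51.6% of all tested genes there in either direction (median −0.23), against 49.9% as reported (median −0.07). Limma called 61.3% and 61.6% with the filter and 30.4% without it. Shares by direction are not given here for the refits, so a change in a list count cannot be set against that of all genes. With only the groups compared, 3 MYC target genes were lower, 2 cofactors higher and 1 clock gene higher in HepG2. Limma without the filter gave 0 other network genes higher, 3 MYC target genes lower and 1 clock gene higher in HepG2, and the latter 1 was also given by limma on log2(FPKM + 1) and without the filter on low counts. Leaving out 1 library gave 1 to 2 clock genes higher and 3 to 5 lower in HepG2, 0 to 1 clock genes lower and 3 to 5 cofactors higher in APOA4-KO, and 1 to 3 MYC target genes lower and 0 to 1 other network genes higher in HepG2.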
